A study of Homo sapiens with 16 samples.

Results

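The 9 genes described here encode proteins of the complement system and of the acute-phase response: C1R, C1S, SERPING1, C3, CFB, CFI, SAA1, SAA2 and CP. They were taken by name from the 60606 gene names counted in each of 16 libraries of polyadenylated RNA, and all 9 were present. The members were chosen by name with earlier results of these counts known, and which values steered the choice is not recorded in full. The value known to have been in view was the response of SAA1 to A1331852 in WT cells, which is therefore given as a description with no test. The 786-O and A498 lines are established human kidney cancer cell lines. The WT 786-O cells carried the label SETD2 WT and the KO cells the label SETD2 null, and how the KO cells were made is not given in the sources used here. Both were harvested 72 h after exposure to the solvent DMSO or to A1331852 at 100 nM. A1331852 blocks BCL-XL, which protects cells from apoptosis. Each of these 4 groups held 3 libraries. The A498 cells were labelled SETD2 deficient or SETD2 add-back, were untreated, and gave 2 libraries per group. All 6 groups grew in RPMI medium with 10% serum, and no group received an inflammatory stimulus according to the labels.

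The complement system is a cascade of blood proteases that marks particles for removal. In its classical pathway the proteases C1r and C1s cut the next components, and the C1 inhibitor encoded by SERPING1 blocks both. All pathways meet at C3, which factor B helps to cleave in the alternative pathway and whose active fragment factor I destroys. The serum amyloid A proteins and ceruloplasmin are acute-phase proteins, secreted mainly by the liver when interleukin-6 and interleukin-1 signal, through STAT3, C/EBP and NF-kB factors. Epithelial cells of the kidney also make C3 and several of the other proteins.

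The libraries held 14172118 to 36037616 counted fragments. Batch 1 contained replicate 3 of both DMSO groups and all 6 A1331852 libraries, batch 2 contained replicates 1 and 2 of both DMSO groups, and batch 3 contained A498, so the lines cannot be told apart from that batch. SETD2 itself measured 63.4 to 73.4 CPM (counts brought to the same total in each library, with edgeR's TMM factors) in the WT DMSO libraries and 29.3 to 31.2 in KO DMSO. Under A1331852 its range was 62.8 to 70.1 CPM for WT, and the KO libraries had 29.2, 47.0 and 52.2. In A498 the SETD2 level did not separate the labels, at 40.6 and 58.5 CPM in the libraries labelled deficient and 44.0 and 52.8 in those labelled add-back, so directions in A498 rest on the labels. Of 12 markers of renal epithelium, the same 9, among them PAX8 and PAX2, reached 1 CPM in every group, as did 2 to 6 of 13 hepatocyte markers, 1 to 3 of 8 fibroblast markers, 0 to 2 of 9 macrophage markers and 0 or 1 of 7 endothelial markers. COL1A1, a fibroblast marker, measured 41.7 to 65.1 CPM in A498, where COL1A2, another marker of that list, had no counts. COL1A1 was the only fibroblast marker to reach 1 CPM in deficient, and in add-back PDGFRB also did. The part of COL1A1 in the differences between lines was not tested. The labels do not say whether replicates came from separate cultures. The spread behind the p-values is therefore that between libraries and may be technical.

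The deposited gene models placed the members on 6 chromosomes of GRCh38. C1R lies at chr12:7080214-7092540 on the minus strand and C1S at chr12:6988259-7071032 on the plus strand, so these neighbours face each other across a gap of 9181 bases. SAA1 (chr11:18266260-18269977, plus strand) and SAA2 (chr11:18239223-18248668, minus strand) lie 17591 bases apart, while SERPING1 is elsewhere on the same chromosome (chr11:57597387-57619171, plus strand). C3 is at chr19:6677704-6730562, CFI at chr4:109731008-109802150 and CP at chr3:149162410-149221829, all on the minus strand, and CFB is at chr6:31945650-31952086 on the plus strand. Reads that fall on exons of 2 genes of the same strand were not counted for either, and this touched the members unequally. Of the principal transcript, 78.6% of the bases of CFB lay in exons of the read-through gene ENSG00000244255, 72.3% of those of CFI in ENSG00000285330, 47.4% of those of SAA2 in SAA2-SAA4, and 25.3% of those of C1R in C1RL. For CP, C3, C1S, SERPING1 and SAA1 the share was 0. The levels of CFB, CFI, SAA2 and, for a smaller share, C1R therefore come from the remaining bases and understate these genes against the others. SAA1 and SAA2 are also near-copies: 16.9% of the 100-base windows of the SAA1 transcript occur in SAA2 and 18.75% of those of SAA2 occur in SAA1, so their counts are uncertain.

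**Figure D1:**
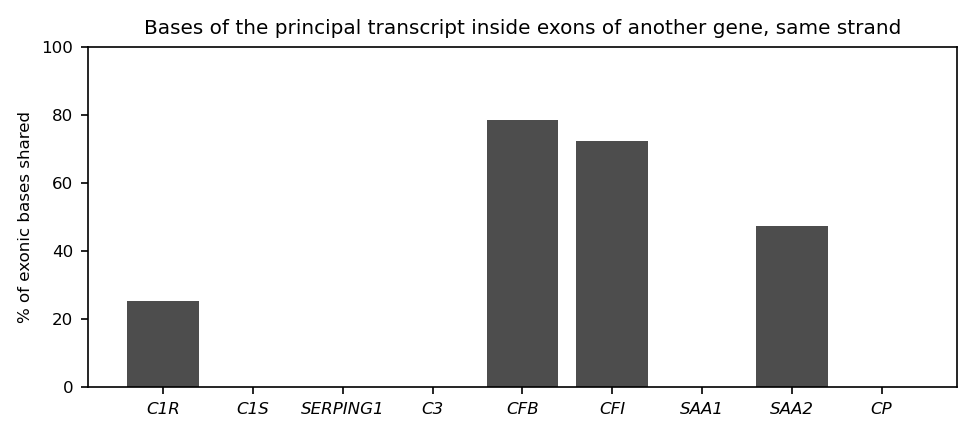
Percent of the exonic bases of each gene's principal transcript (GENCODE release 29) that lie inside exons of another gene on the same strand in the deposited gene models. The bars for CFB (78.6%), CFI (72.3%), SAA2 (47.4%) and C1R (25.3%) show where fragments were left uncounted, and the other 5 genes have none.

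Promoter sequence was at hand for 3 of the 9 members, from RefSeq (GRCh38.p14). The 250 bases before the start of CFI, the member whose level differed most between the DMSO libraries of the 2 batches, of CFB, which was near the limit of detection, and of C1R, which separated the cell lines, are shown 5′ to 3′, with capitals where a motif of an acute-phase factor was found. The motifs searched on both strands were the NF-kB consensus, TTCNNNGAA for STAT factors, TTGCNNAA for C/EBP, the interferon-stimulated response element by its name, and CAAAGTCCA for HNF4.
CFI, chr4:109802000-109802249, minus strand: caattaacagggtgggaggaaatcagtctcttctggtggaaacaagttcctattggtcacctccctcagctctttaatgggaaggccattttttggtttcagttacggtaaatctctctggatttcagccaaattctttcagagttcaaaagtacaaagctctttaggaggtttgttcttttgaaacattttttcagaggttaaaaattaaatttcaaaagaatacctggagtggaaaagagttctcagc
CFB, chr6:31945845-31946094, plus strand: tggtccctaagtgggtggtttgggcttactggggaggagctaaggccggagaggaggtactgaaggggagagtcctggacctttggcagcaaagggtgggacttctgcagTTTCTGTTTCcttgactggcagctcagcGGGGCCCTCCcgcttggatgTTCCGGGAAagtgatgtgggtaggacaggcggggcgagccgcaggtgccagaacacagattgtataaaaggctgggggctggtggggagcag
C1R, chr12:7092446-7092695, minus strand: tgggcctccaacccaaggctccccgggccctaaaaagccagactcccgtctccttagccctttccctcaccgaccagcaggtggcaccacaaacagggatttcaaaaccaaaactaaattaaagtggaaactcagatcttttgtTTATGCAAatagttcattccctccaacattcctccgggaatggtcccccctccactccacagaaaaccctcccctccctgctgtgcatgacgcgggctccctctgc
The CFI window held no match to any of the 5 motifs. The CFB window held 3 motifs in capitals: an interferon response element 140 to 131 bases before the start, an NF-kB motif 112 to 103 bases before it and a STAT motif 92 to 84 bases before it. The C1R window held 1 C/EBP match on the opposite strand, 106 to 99 bases before the start. A second RefSeq start of C1R (window chr12:7091894-7092143) held 1 STAT and 1 C/EBP match. Over all 35114 promoter windows of that length, 9.96% held the NF-kB motif, 6.57% the STAT motif, 9.05% the C/EBP motif, 3.02% the interferon element and 0.325% the HNF4 motif. These matches describe letters in a window and do not show that a factor binds there.

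The proteases of the classical pathway separated the lines. C1R measured 0.990, 0.787 and 1.65 CPM in WT DMSO, 1.14, 1.30 and 1.49 in KO DMSO, and under A1331852 1.43, 1.76 and 2.80 for WT and 0.898, 0.870 and 2.51 for KO. In A498 it measured 58.0 and 52.7 CPM in the libraries labelled deficient and 41.4 and 37.6 in add-back. C1S went from 0.165 to 5.19 CPM over the 12 libraries of 786-O, and reached 286 and 243 CPM in A498 deficient and 209 and 193 in add-back. All 4 libraries of A498 thus stood above all 12 of 786-O for both genes. The add-back mean was 34.6 times the WT DMSO mean for C1R and 79.0 times for C1S, a description only, since line, batch and treatment cannot be told apart here. Within 786-O the highest C1S value, 5.19 CPM, belonged to replicate 3 of WT DMSO and the lowest, 0.165, to replicate 1 of WT A1331852. SERPING1, the inhibitor of both proteases, was hardly detected in either line. It had 0 counts in 8 of the 12 libraries of 786-O, where a count of 0 allows up to 0.0959 to 0.190 CPM (3 counts per library, counting error only), and 1 or 2 counts in the rest. A498 had 5 and 5 counts in deficient and 10 and 10 in add-back, or 0.318 and 0.322 against 0.541 and 0.523 CPM.

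C3, the component on which all pathways meet, was detected in every library. It measured 29.4, 30.6 and 40.9 CPM in WT DMSO and 13.3, 11.5 and 8.09 in KO DMSO. With A1331852 it measured 3.35, 12.9 and 15.4 CPM in WT and 1.90, 3.38 and 5.55 in KO. The WT DMSO libraries were above all other 786-O libraries, and within either treatment the KO group had the lower mean, although under A1331852 the ranges overlapped because replicate 1 of WT was low. A498 was higher still, at 74.5 and 81.4 CPM in deficient and 67.9 and 62.7 in add-back. CFB, the protease partner of C3 in the alternative pathway, stayed at 1 to 9 counts in every library (0.0482 to 0.471 CPM), and no comparison of it was tested.

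CFI, the protease that inactivates the C3 fragment, differed within both DMSO groups. It measured 7.16 and 7.24 CPM in replicates 1 and 2 of WT DMSO but 62.8 in replicate 3, and 15.8 and 15.6 CPM in replicates 1 and 2 of KO DMSO but 56.3 in replicate 3. Under A1331852 it measured 27.3, 30.4 and 22.4 CPM in WT and 10.3, 11.4 and 12.4 in KO. A498 gave 11.8 and 10.8 CPM in deficient and 11.1 and 8.42 in add-back. In both DMSO groups the high library was the one of batch 1, and the treated KO libraries lay below all 3 treated WT libraries.

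SAA1 measured 6.65, 6.77 and 6.96 CPM in WT DMSO and 3.40, 3.81 and 6.26 in KO DMSO. Under A1331852 it measured 0.604, 1.45 and 2.01 CPM in WT and 1.32, 1.54 and 1.45 in KO, and A498 gave 3.05 and 1.61 CPM in deficient and 2.49 and 3.03 in add-back. Every treated 786-O library was below every DMSO library. SAA2, its near-copy, had 0 to 22 counts per library, with the highest level, 1.06 CPM, in replicate 3 of KO DMSO and 0 to 0.198 CPM in the 3 KO A1331852 libraries. In both genotypes its treated libraries were also below its DMSO libraries of the same genotype.

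CP, which encodes the copper-carrying ferroxidase ceruloplasmin, had the widest span in A498. It measured 139 and 180.1 CPM in the libraries labelled deficient and 12.01 and 14.8 in add-back. In 786-O it measured 38.6, 34.6 and 87.0 CPM in WT DMSO, 27.7, 25.2 and 44.2 in KO DMSO, and under A1331852 56.1, 80.8 and 115 for WT and 66.8, 53.9 and 67.4 for KO. The groups of 786-O thus fell between the A498 groups, and as for CFI the highest library of each DMSO group was the one of batch 1.

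**Figure D2:**
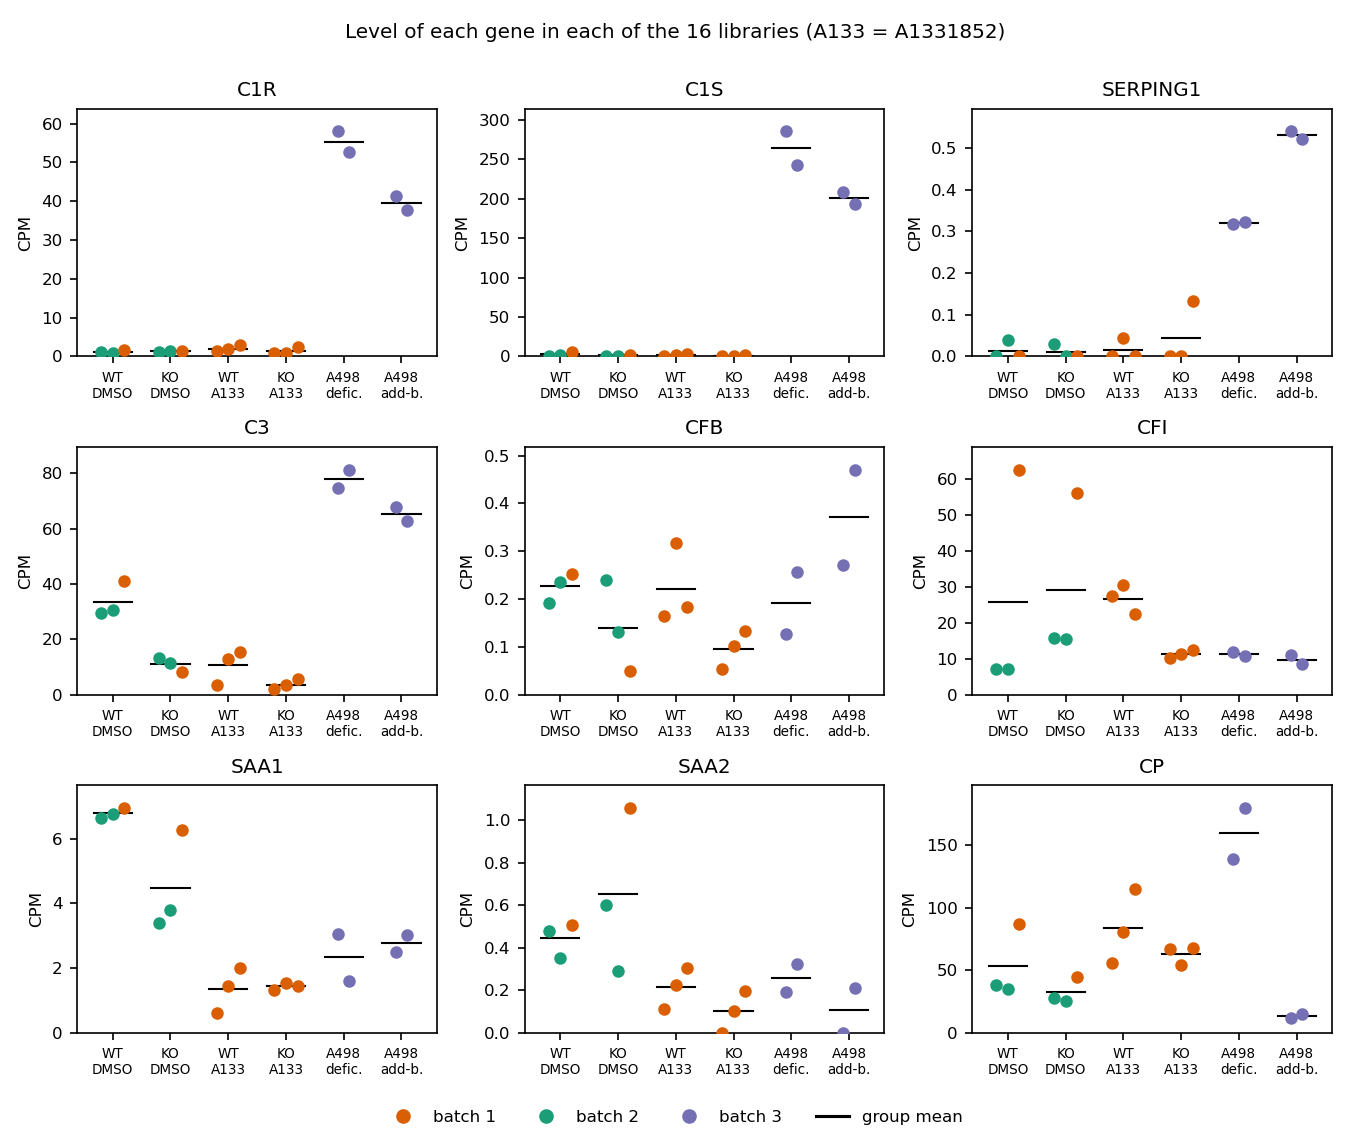
Level of each of the 9 genes in CPM (linear axis starting at 0, scaled per gene) in all 16 libraries, by group, with colours for the batch and a bar for the group mean. C1R, C1S and C3 are higher in all A498 libraries than in any of 786-O, CP separates the A498 labels (139 and 180.1 against 12.01 and 14.8 CPM), and CFI is high in the single batch 1 library of each DMSO group (62.8 and 56.3 CPM).

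Between genes, levels were compared per length of the gene model, as TPM (length-scaled counts with a common total per library), leaving out CFB, CFI and SAA2. C1R was kept, although 25.3% of its principal transcript lies in exons of C1RL, so its values are understated against the others. SAA1 was kept too, with counts that are uncertain because of SAA2. In WT DMSO the order was CP (28.0 ± 18.1 TPM, SD, n = 3), SAA1 (23.0 ± 2.67), C3 (10.5 ± 3.03), C1S (1.16 ± 1.15), C1R (0.723 ± 0.356) and SERPING1 (0.00611 ± 0.0106). CP and SAA1 did not differ beyond their spread, nor did C1S and C1R. In A498 add-back C1S led (100.4 ± 7.23 TPM, n = 2), followed by C1R (28.2 ± 2.36), C3 (23.4 ± 1.67), SAA1 (10.8 ± 1.34), CP (7.82 ± 1.01) and SERPING1 (0.305 ± 0.0119). In A498 deficient CP stood next to C1S, at 78.7 ± 13.0 against 111 ± 14.8 TPM.

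Loss of SETD2 in DMSO-treated 786-O cells was compared first. C3 fell: its mean was 33.6 ± 6.32 CPM in WT and 10.99 ± 2.66 in KO (SD, n = 3 each), the groups did not overlap, and the fitted log2 change was -1.62 ± 0.45 (SE; edgeR, adjusted p = 0.0267). In bulk RNA, fewer cells that make a transcript and less of it per cell cannot be told apart. The factors of the other end of the cascade showed no call: the change was 0.25 ± 0.41 for C1R (edgeR, adjusted p = 0.729) and -0.92 ± 0.60 for C1S (adjusted p = 0.326). CP changed by -0.64 ± 0.22 (edgeR, adjusted p = 0.0604), and by -0.64 with the replicate number as a block (adjusted p = 0.022). For CFI the value was 0.67 ± 0.22 (edgeR, adjusted p = 0.0562) and for SAA1 -0.66 ± 0.29 (adjusted p = 0.137). Of the 9 genes 6 had enough counts to be tested, of which 1 was called lower and 0 higher, against 18.5% of all 16260 genes called in either direction, 8.29% higher and 10.2% lower. The median log2 change of those 6 was -0.65, against -0.02 over all genes tested. The C3 call was lost, with the direction kept, when any 1 of the 6 DMSO libraries was left out (edgeR, adjusted p from 0.0597 to 0.187 in those 6 fits).

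Under A1331852 the same comparison of KO with WT called 2 of the 6, both lower, where 28.2% of all genes were called, 13.2% higher and 15% lower. CFI fell by 1.23 ± 0.23 on the log2 scale (edgeR, adjusted p = 0.00196), from a mean of 26.7 ± 4.07 CPM in WT to 11.3 ± 1.08 in KO (SD, n = 3 each), with no overlap. Without the batch term the CFI call was lost (edgeR, adjusted p = 0.309), and it held in 18 of 19 alternative fits. C3 fell by 1.56 ± 0.49 (edgeR, adjusted p = 0.0327), from 10.5 ± 6.35 to 3.61 ± 1.83 CPM, with overlapping groups. Both groups of this comparison lie in batch 1. The other values were -0.42 ± 0.22 for CP (edgeR, adjusted p = 0.174), 0.10 ± 0.35 for SAA1 (adjusted p = 0.86), -0.50 ± 0.41 for C1R and -0.45 ± 0.66 for C1S. The median of the 6 was -0.48, against -0.01 over all genes tested. The C3 call was lost when replicate 2 or 3 of WT A1331852 or replicate 1 or 2 of KO A1331852 was left out (edgeR, adjusted p from 0.0724 to 0.125), and also in batch 1 alone (adjusted p = 0.0883) and with limma voom (0.0827).

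A1331852 was compared with DMSO in each genotype, to ask what inhibition of BCL-XL changed. In WT cells SAA1 went from a mean of 6.79 ± 0.159 CPM to 1.35 ± 0.706 (SD, n = 3 each), a log2 change of -2.67 ± 0.38. The other values in WT were -1.69 ± 0.51 for C3 (edgeR, adjusted p = 0.206), -1.82 ± 0.69 for C1S (adjusted p = 0.301), -0.90 ± 0.25 for CFI (adjusted p = 0.179), 0.07 ± 0.26 for CP and 0.43 ± 0.50 for C1R. Of the 5 tested members other than SAA1, 0 were called (edgeR, and likewise 0 with DESeq2 and with limma voom). Over all genes 0.141% were called, 0.0369% higher and 0.105% lower. Of those 5 members, 3 had an unadjusted edgeR p under 0.05. The share of all genes at that threshold was not counted, so the 3 cannot be read as more than that share. In KO cells CFI fell by 2.81 ± 0.27 on the log2 scale (edgeR, adjusted p = 0.000374). SAA1 fell there by 1.91 ± 0.37 (edgeR, adjusted p = 0.00701), from 4.49 ± 1.55 to 1.44 ± 0.108 CPM. C3 changed by -1.63 ± 0.58 (edgeR, adjusted p = 0.0862), C1S by -1.35 ± 0.76, C1R by -0.32 ± 0.51 and CP by 0.30 ± 0.27. These 2 calls among 6 tested members stood against 13.5% of all genes called, 6.46% higher and 7.08% lower. SAA1, 1 of these 2, was chosen with its WT response in view. Its KO test shared the batch term and the estimate of spread with the WT libraries, so it is not independent of that choice. The SAA1 call in KO was lost without replicate 3 of KO DMSO, the only KO DMSO library of batch 1 (-1.41; edgeR, adjusted p = 0.164), and in batch 1 alone (-2.14; adjusted p = 0.109). The CFI call in KO was lost without the batch term (-1.35; edgeR, adjusted p = 0.268) and held in 18 of 19 alternative fits. The comparisons of genotype and of treatment use the same 12 libraries and are not independent of each other.

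The difference between the responses of KO and WT was tested in the same fit. It was called for CFI, at -1.91 ± 0.32 (edgeR, adjusted p = 0.0348), a stronger decrease in KO. It was 0.76 ± 0.46 for SAA1 (edgeR, adjusted p = 0.608), 0.23 ± 0.31 for CP, 0.06 ± 0.67 for C3, -0.75 ± 0.58 for C1R and 0.47 ± 0.90 for C1S. CFI was the 1 member of 6 called, and of all genes 0.295% were called, 0.203% higher and 0.0923% lower. The CFI difference was lost in 10 of 19 alternative fits. It was -1.08 in batch 1 alone (edgeR, adjusted p = 1), and leaving out any of replicates 1 and 2 of the 4 groups in turn also ended the call (adjusted p from 0.0689 to 0.171).

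**Figure D3:**
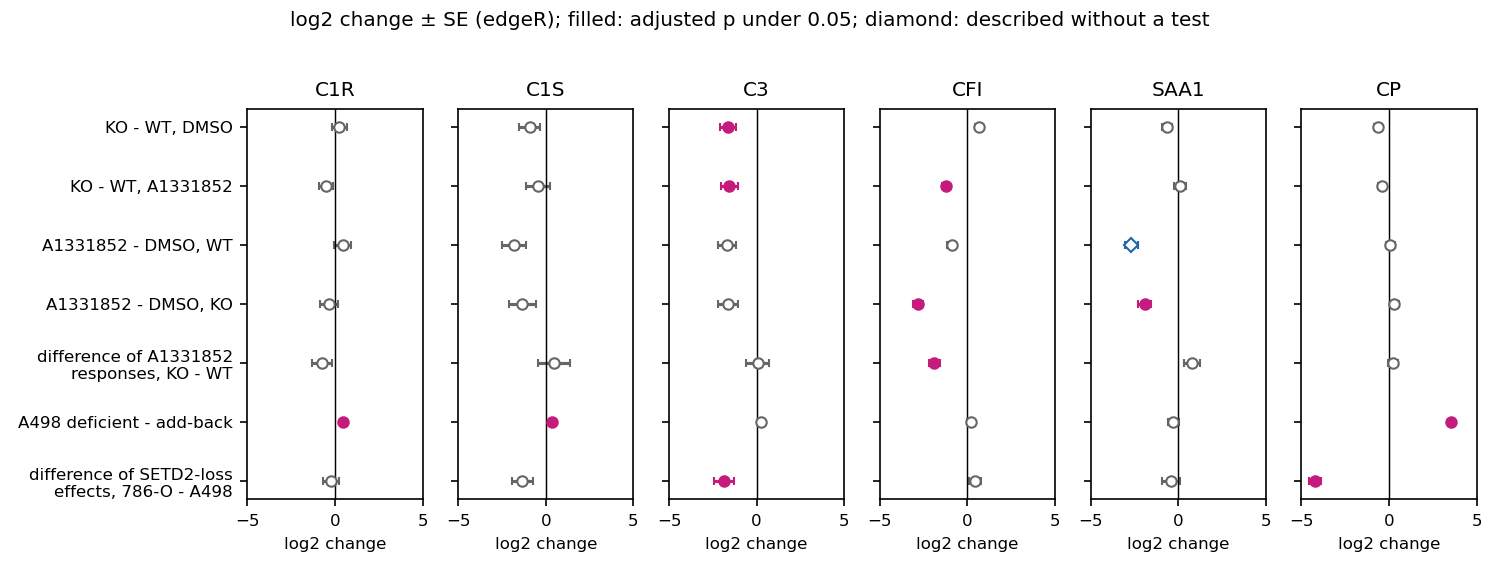
Fitted log2 change ± SE of the 6 tested genes in each of 7 comparisons, with filled points where the edgeR adjusted p was under 0.05 and a diamond for the SAA1 value that is described without a test. C3 is to the left of 0 in both comparisons of KO with WT in 786-O (-1.62 and -1.56), SAA1 and CFI are to the left in A1331852 against DMSO, and CP is far to the right in A498 (3.54).

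Batch moved with several of these values and was therefore set beside them. The batch 1 library of WT DMSO held 8.72 times the CFI level of the batch 2 libraries, and the batch 1 library of KO DMSO 3.59 times. Among the 13940 genes averaging 1 CPM or more, those higher in batch 1 by at least as much as CFI, CFI included, were counted. They numbered 8 in WT DMSO (0.0574%) and 95 in KO DMSO (0.681%). Genes lower in batch 1 by as much were not counted. The same ratio was 4.24 and 2.53 for C1S, 2.38 and 1.67 for CP, 1.36 and 0.651 for C3, and 1.04 and 1.74 for SAA1, in WT and KO in that order. Within batch 1, with 1 DMSO library per genotype, the A1331852 mean was 42.6% of DMSO for CFI in WT and 20.1% in KO. For SAA1 it was 19.4% in WT and 22.9% in KO, for C3 25.8% and 44.6%, and for CP 96.6% and 142%. Within batch 1 the A1331852 means of SAA1, CFI and C3 were thus below the DMSO library in both genotypes. For KO against WT in DMSO the C3 change was -2.33 in batch 1 alone (edgeR, adjusted p = 0.474) and -1.24 in batch 2 alone (adjusted p = 3.09e-11). The CFI change was -0.15 in batch 1 alone (edgeR, adjusted p = 0.932) and 1.14 in batch 2 alone (adjusted p = 1.96e-09). Batch 1 holds 1 DMSO library per genotype, and the difference between the batches was not tested. In batch 2, where for the median gene replicates differed by no more than counting noise (median chi-square per gene of 1.02 in WT and 0.949 in KO, against 11.2 to 15.4 for the other DMSO pairs), 9276 of 16658 genes were called. What the batches differed in was not tested.

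**Figure D4:**
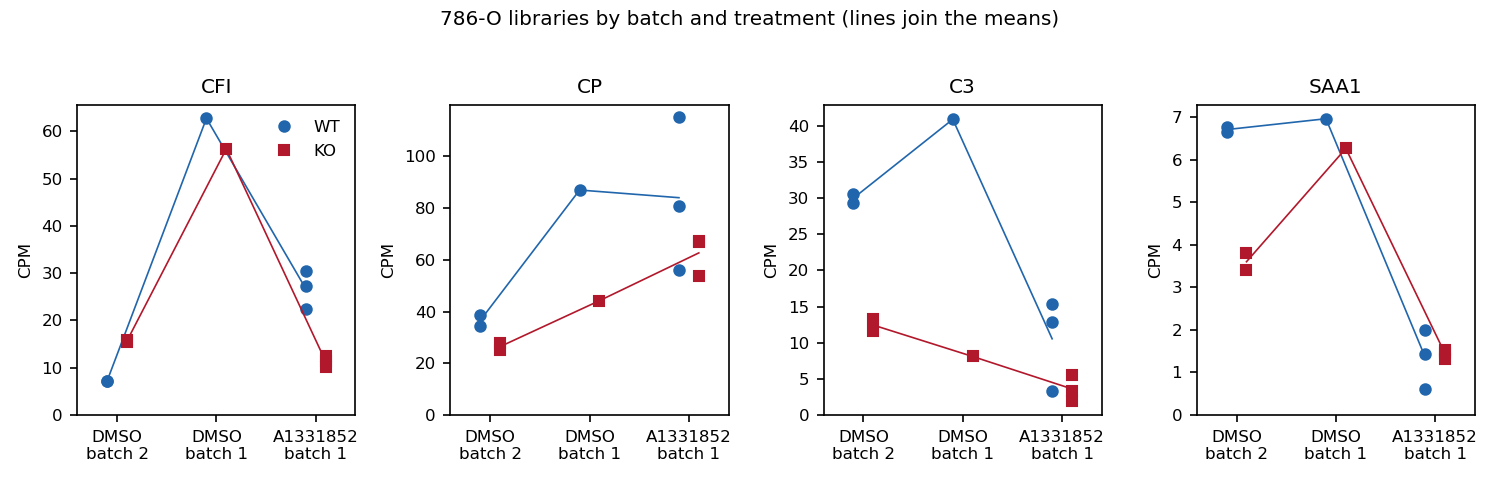
Level in CPM of CFI, CP, C3 and SAA1 in the 12 libraries of 786-O, by batch and treatment, with points for libraries and lines joining the group means of WT and KO. CFI is higher in batch 1 than in batch 2 within DMSO (62.8 against 7.16 and 7.24 CPM in WT), whereas C3 is lower in KO than in WT in every column mean.

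In A498 the comparison of the libraries labelled deficient with add-back called 3 of 6 tested members, all higher, where 30.2% of all 15424 genes were called, 15.1% higher and 15.1% lower. CP rose by 3.54 ± 0.17 on the log2 scale (edgeR, adjusted p = 6.29e-09), a ratio of means of 11.9. C1R rose by 0.45 ± 0.14 (edgeR, adjusted p = 0.0229) and C1S by 0.36 ± 0.13 (adjusted p = 0.0413), and neither gene's groups overlapped. With 2 libraries per group the same held for C3, which was not called. It also held for CFB and SERPING1, which were lower in deficient and not tested. The share of all genes without overlap was not counted. C3 changed by 0.22 ± 0.13 (edgeR, adjusted p = 0.218), CFI by 0.18 ± 0.19 and SAA1 by -0.27 ± 0.32. The median of the 6 was 0.29, against -0.01 over all genes tested. The C1R and C1S calls ended when either add-back library was left out (edgeR, adjusted p = 0.133 and 0.318 for C1R, 0.181 and 0.383 for C1S), and that of C1S also without replicate 1 of deficient (0.25; adjusted p = 0.0699). The C1S call held in 4 of 9 alternative fits.

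Several liver genes differed between the libraries labelled deficient and are given beside CP. The 13 hepatocyte markers summed to 44.2 CPM in 1 deficient library and 4.95 in the other, against 8.82 and 9.31 in add-back and 24.4 to 93.1 in 786-O. ALB, the gene of serum albumin, measured 11.9 CPM in replicate 1 of deficient, 0.193 in replicate 2, and 0.162 and 0.105 in add-back. Likewise APOB measured 7.06, 0, 0.108 and 0.0523 CPM in that order, and APOC3 and CYP3A4 had no counts in deficient. SERPINA1 measured 8.58 and 4.25 CPM in deficient and 6.76 and 7.43 in add-back, and CYP2E1 was higher in add-back, at 0.0636 and 0.129 against 1.03 and 1.41 CPM. CP was higher in replicate 2 (180.1 CPM), where albumin was low, than in replicate 1 (139 CPM), and without replicate 1 its log2 change was 3.73 (edgeR, adjusted p = 4.08e-27). HNF4A, a transcription factor of liver and proximal tubule, had 155 and 164 counts in deficient and 1 and 2 in add-back, in both deficient libraries alike. That is a ratio of 128 (95% exact counting interval 43.4 to 623), and it was called higher (edgeR, adjusted p = 2.15e-08). Whether this factor had a part in the CP level was not tested.

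**Figure D5:**
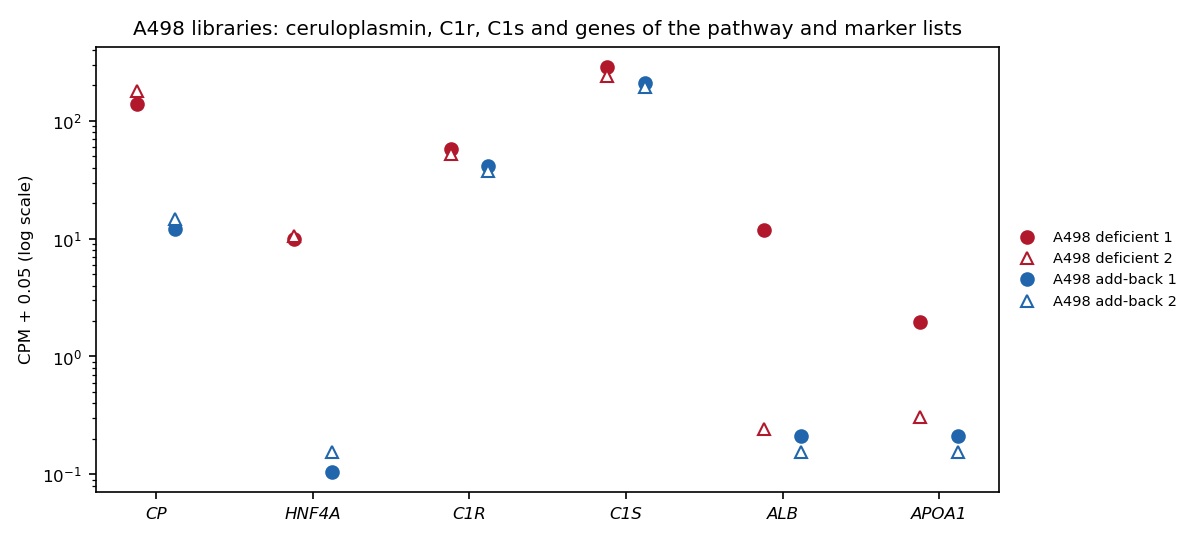
CPM + 0.05 on a log axis for CP, C1R, C1S and genes of the pathway and marker lists in the 4 libraries of A498, with circles for replicate 1, triangles for replicate 2, red for deficient and blue for add-back. CP and HNF4A are high in both deficient libraries, whereas ALB and APOA1 are high in replicate 1 of deficient alone (ALB 11.9 against 0.193 CPM).

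The change that goes with the SETD2 labels was also compared between the lines, as the change in 786-O under DMSO minus that in A498. It differed for CP, at -4.22 ± 0.35 (edgeR, adjusted p = 1.3e-06), and for C3, at -1.87 ± 0.59 (adjusted p = 0.0492), 2 of the 8 members tested in all 16 libraries, where 13.2% of all 17868 genes were called, 6.12% higher and 7.1% lower. The difference was -1.34 ± 0.60 for C1S (edgeR, adjusted p = 0.162, and 0.00686 with the replicate block), 0.46 ± 0.34 for CFI, -0.42 ± 0.49 for SAA1, -0.23 ± 0.46 for C1R, -0.82 ± 1.17 for SAA2 and 0.59 ± 2.60 for SERPING1. The CP difference was called in 22 of 22 alternative fits and the C3 difference in 7 of 22. The lines also differ in how SETD2 was altered, in treatment with DMSO and in batch, and these cannot be told apart. SETD2 itself changed by 0.003 ± 0.17 in A498 (edgeR, adjusted p = 0.991). Its difference between the lines was -1.24 ± 0.29 (edgeR, adjusted p = 0.0106), so in A498 the comparison is one of labels.

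Other genes of the same pathways were counted from 4 lists. Of 24 other complement components, 5 were tested in 786-O, and in DMSO C5, the start of the lytic pathway, fell by 1.18 ± 0.16 in KO (edgeR, adjusted p = 0.000481), CFD, the protease that activates factor B, fell by 2.60 ± 0.51 (adjusted p = 0.00457) and C2 rose by 1.71 ± 0.46 (adjusted p = 0.0222). These 3 calls of 5 stood against 18.5% of all genes called. The C2 call held in 15 of 20 alternative fits (log2 change from 0.60 to 2.19) and was lost in batch 1 alone and without replicate 1 or 2 of either DMSO group. The same 3 were called in the same directions under A1331852, at -1.89 ± 0.17, -2.86 ± 0.59 and 2.26 ± 0.56. In A498 CFD was also lower in deficient, at -1.83 ± 0.18 (edgeR, adjusted p = 4.57e-06), and C4B was higher at 1.63 ± 0.49 (adjusted p = 0.0227), a call that held in 4 of 9 alternative fits. Of the 9 tested complement regulators and receptors of 786-O, 3 rose and 3 fell in KO under DMSO, against 8.29% of all genes called higher and 10.2% lower. CLU, a fluid-phase inhibitor of the lytic complex, rose by 0.95 ± 0.13 (edgeR, adjusted p = 0.000606), and ITGAX, part of a receptor for C3 fragments, rose by 2.22 ± 0.33 (adjusted p = 0.000858). C5AR1, the C5a receptor, rose by 2.43 ± 0.50 (edgeR, adjusted p = 0.00567) and C3AR1, the C3a receptor, fell by 1.67 ± 0.22 (adjusted p = 0.000419). In A498 the directions of CLU (-0.51 ± 0.13) and ITGAX (-1.55 ± 0.17) were the opposite, and the difference between lines was called for both (edgeR, adjusted p = 0.000235 and 8.12e-05).

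Of the 8 other acute-phase genes tested in 786-O, 4 rose and 0 fell in KO under DMSO, against 8.29% of all genes called higher and 10.2% lower. The list was drawn up by name and was not split by whether a protein rises or falls in the acute phase. The count therefore does not describe a direction of that response. The 4 that rose were FGB, the fibrinogen beta chain (2.14 ± 0.32; edgeR, adjusted p = 0.000954), TF, transferrin (3.74 ± 0.87; adjusted p = 0.0108), HPX, hemopexin (1.34 ± 0.32; adjusted p = 0.0123) and ALB (2.84 ± 0.74; adjusted p = 0.0195). Summed over the 3 libraries, TF and ALB each had 4 counts in WT DMSO, against 69 and 37 in KO DMSO. In 20 alternative fits the FGB call held in 19, that of TF in 18, that of HPX in 16 and that of ALB in 14. FGB was lost in batch 1 alone, and TF there and without replicate 1 of WT DMSO. HPX was lost in batch 1 alone and without replicate 1 or 2 of WT DMSO or replicate 2 of KO DMSO. ALB (log2 change from 1.58 to 4.20) was lost in batch 1 alone, without the batch term and without replicate 1 or 2 of either DMSO group. FGB then fell by 4.05 ± 0.41 under A1331852 in KO (edgeR, adjusted p = 0.000383), from 3.64 ± 2.20 to 0.398 ± 0.189 CPM (SD, n = 3 each), the same direction as SAA1 and CFI, while PTX3, a long pentraxin, rose by 4.81 ± 0.85 (adjusted p = 0.00474). In A498 3 of 6 tested genes of this list rose and 0 fell, against 15.1% of all genes called higher and 15.1% lower. FTH1, the ferritin heavy chain, rose by 0.87 ± 0.10 (edgeR, adjusted p = 1.75e-05), a call that held in 9 of 9 alternative fits, whereas that of FTL held in 5 and that of LCN2 in 2.

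Of 27 tested cytokines, receptors and transcription factors of the acute-phase response, 1 rose and 2 fell in KO under DMSO, 4 rose and 4 fell in KO under A1331852, and 4 rose and 3 fell with A1331852 in KO. Over all genes 18.5%, 28.2% and 13.5% were called in those comparisons. IL6, the main inducer of the liver response, rose by 2.43 ± 0.28 with A1331852 in KO cells (edgeR, adjusted p = 0.000659), from 4.70 ± 0.334 to 20.7 ± 4.99 CPM (SD, n = 3 each). In the same cells CEBPD, a C/EBP factor induced in the acute phase, fell by 1.59 ± 0.26 (edgeR, adjusted p = 0.00361), and NFKBIZ, a nuclear cofactor of NF-kB, fell by 1.46 ± 0.24 (adjusted p = 0.0035). IRF1, an interferon-response factor, rose by 1.02 ± 0.16 (edgeR, adjusted p = 0.00255). IL6 was the only gene of the 4 lists whose response differed between KO and WT (1.77 ± 0.31; edgeR, adjusted p = 0.0364), a call kept in 8 of 19 alternative fits. In WT cells 0 genes of the 4 lists were called with A1331852 (edgeR), with between 0 and 5 genes of each list under an unadjusted p of 0.05. The share of all genes under that unadjusted threshold was not counted, so these counts cannot be read as more than that share. In A498 10 of 29 tested genes of this list rose and 7 fell, against 15.1% of all genes called higher and 15.1% lower, among them IL11 at -2.98 ± 0.27 (edgeR, adjusted p = 1.83e-06).

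Across the 12 libraries of 786-O, the genes whose log2 CPM followed each tested member most closely were found by Pearson correlation among 16291 genes. These libraries share batches, treatments and genotypes, so the coefficients are descriptions. SAA1 was followed most closely by ENSG00000280195 (r = 0.912), TGFBI (0.910) and FCAMR (0.906). For C3 they were SLC25A29 (0.958), LAMP1 (0.953) and PPM1H (0.950), and for CFI BDH2 (0.959), TRAPPC11 (0.951) and CYS1 (0.949). CP was followed by RPL37 (0.971), SGCE (0.969) and REEP3 (0.965), C1R by CCDC28A (0.957), ABTB1 (0.951) and SCAMP1 (0.943), and C1S by PRDX5 (0.913), WBP1 (0.904) and ENSG00000254859 (0.889). No member was among the 3 nearest genes of another member. Within the 6 the closest pairs were C3 with SAA1 (r = 0.789), C1S with C3 (0.649) and C1R with CP (0.628), while CP and SAA1 gave -0.399.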

How the data were processed

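Polyadenylated RNA was sequenced in 16 libraries as pairs of 150-base reads. The deposited values are raw counts per gene name, made by the authors with featureCounts 1.5.0-p3 (reverse-stranded fragments on GENCODE 41 exons), per the file headers. The submitters' processing notes also name STAR, MultiQC 1.7, DESeq2 and GRCh38. The members and lists were chosen with earlier results of these data known.

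Counts of the 12 libraries of 786-O (batch as a term), the 4 of A498, or all 16 were fitted with edgeR 4.0.16 (R 4.3.3): TMM factors, filterByExpr with a minimum count of 10, quasi-likelihood test, Benjamini-Hochberg adjustment over all genes tested, and an adjusted p of 0.05 as the threshold. CPM used TMM-scaled totals, and TPM used the files' gene lengths. Totals of 14172118 to 36037616 set the precision, and the intervals and floors given hold for counting error alone. The alternatives used DESeq2 1.42.0 and limma 3.58.1, among others. Genes of the pathway lists were named by adjusted p, up to 4 per list and comparison. The fitting was tested on simulated data. No 2 replicates agreed within sampling noise over all genes: the closest, replicates 1 and 2 of each DMSO group, had a mean chi-square per gene of 3.72 (WT) and 3.16 (KO), although the medians were 1.02 and 0.949.

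Same-numbered WT and KO libraries deviated together (in DMSO r lay between 0.705 and 0.815, under A1331852 between 0.305 and 0.585). The main fits did not pair them, and the replicate number was a block only in an alternative fit. Under A1331852 differently numbered libraries gave r from -0.47 to 0.306. Differently numbered libraries of batch 2 gave 0.679 and 0.728, so in DMSO number and batch cannot be told apart.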

Additional observations from a re-analysis of the deposited data

Results flagged for a closer look

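The difference between the responses of CFI to A1331852 in KO and WT 786-O cells was -1.91 on the log2 scale (edgeR, adjusted p = 0.0348), a call that held in 9 of 19 alternative fits. The KO mean went from 29.2 to 11.3 CPM and the WT mean from 25.7 to 26.7 CPM, with the batch term in the fit setting the change in WT at -0.90. These DMSO means mix 2 batches, whereas all treated libraries lie in batch 1. Within batch 1, with 1 DMSO library per genotype, CFI went from 62.8 to 26.7 CPM in WT and from 56.3 to 11.3 in KO. The DMSO level in batch 1 was 8.72 times that in batch 2 for WT and 3.59 times for KO, while the fit held 1 batch term for both.

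The change of CP between the SETD2 labels differed between the lines, at -4.22 for 786-O in DMSO minus A498 (edgeR, adjusted p = 1.3e-06, called in 22 of 22 alternative fits), with -0.64 in 786-O and 3.54 in A498. For C3 the difference was -1.87 (edgeR, adjusted p = 0.0492, called in 7 of 22), with -1.62 in 786-O and 0.22 in A498. Line, batch and treatment cannot be told apart in these 2 differences, and in A498 the SETD2 level did not separate the labels.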

How the results depend on the processing

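No member's change reversed direction while called. Of the members' values under the alternatives, 680 kept their sign and their side of the threshold, 58 lost a call and 34 gained one. The other 26 changed sign with no call in either fit. Size was not compared, and the values of SAA1 in WT are among them. The number of members called was 1 for KO against WT in DMSO, but 3 with DESeq2, 3 with no low-count filter, 2 with the replicate block, 0 in batch 1 alone, 4 in batch 2 alone and 0 to 4 with a replicate left out. For KO against WT in A1331852 it was 2, but 1 with limma voom, 1 without the batch term, 1 in batch 1 alone and 1 to 3 with a replicate left out. For A1331852 in WT it was 0 among the 5 tested members other than SAA1, and likewise 0 with DESeq2 and with limma voom. SAA1 was left out there because its value was known beforehand. For the other alternatives the number without SAA1 was not counted. For A1331852 in KO it was 2, but 5 with no filter, 1 without the batch term, 1 in batch 1 alone and 1 to 4 with a replicate left out. For the difference of responses it was 1, but 0 without the batch term, 0 in batch 1 alone and 0 to 1 with a replicate left out. In A498 it was 3, but 2 with upper-quartile factors, 2 with no filter and 1 to 3 with a replicate left out. For the difference between lines it was 2, but 1 with DESeq2, 1 with upper-quartile factors, 1 without the batch term and 1 to 3 with a replicate left out. The cause was not tested.

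Over all genes, calls for KO against WT in DMSO numbered 3001, but 1490 without the batch term, 4646 with the replicate block, 53 in batch 1 alone and 9276 in batch 2 alone. For KO against WT in A1331852 they numbered 4588, but 2489 without the batch term and 2376 in batch 1 alone. For A1331852 in WT they numbered 23, but 420 with DESeq2, 909 with no filter, 6 without the batch term, 2831 with the replicate block and 0 in batch 1 alone. For A1331852 in KO they numbered 2201, but 4311 with the block and 85 in batch 1 alone. For the difference of responses they numbered 48, but 365 with DESeq2, 647 with no filter, 7 without the batch term, 334 with the block and 0 in batch 1 alone. For the lines they numbered 2362, but 1067 without the batch term and 3692 with the block. With 1 library left out the range was 1614 to 4363 for KO against WT in DMSO, with 1614 to 1777 when it was a DMSO library and 4363 without replicate 3 of WT A1331852. For A1331852 in KO it was 592 (without replicate 3 of WT DMSO) to 3593, with 781 without replicate 3 of KO DMSO. It was 3417 to 5455 for KO against WT in A1331852, 0 to 64 for A1331852 in WT, 0 to 89 for the difference of responses when replicate 3 of WT A1331852 was kept (and higher without it), and 1151 to 3326 for the lines. In A498 4657 genes were called, but 2303 and 2246 without add-back replicate 1 and 2. Upper-quartile factors gave 1586 higher and 1364 lower for KO against WT in DMSO, against 1348 and 1653, and 831 and 1363 for A1331852 in KO, against 1050 and 1151.

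Between DMSO and A1331852 (r from -0.0487 to 0.0954) and in A498 (r = 0.188) libraries share only a number, and there the block is a description. With it C3 changed by -1.61 for KO against WT in DMSO. Leaving a replicate out of A498 leaves 1 library in that group, which is assumed to vary like the other group. CFB, SERPING1 and SAA2 had too few counts for most tests.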
